A study of Mus musculus with 6 samples.

Results

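The long noncoding RNA genes of the ileum RNA-seq table were described here. They are the rows whose gene biotype in the deposited table is lincRNA, antisense, TEC (a transcribed region still to be tested for coding), processed_transcript, sense_intronic or bidirectional_promoter_lncRNA. Gm15283, an antisense gene that spans Hif1a itself, was left out. These biotypes gave 137 of the 923 listed genes: 50 lincRNA, 39 antisense, 32 TEC, 8 processed_transcript, 6 sense_intronic and 2 bidirectional_promoter_lncRNA genes. The biotype is the annotation's and not always a statement that no protein is made, since Zswim6, named after seeing its values, carries the processed_transcript biotype although its symbol belongs to a known protein-coding gene.

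RNA came from whole ileum of 3 intestinal epithelial-specific HIF-1α overexpression mice (Hif1α LSL/LSL;VilERcre, labelled OE here) and of 3 littermates with the same allele and no Cre (Hif1α LSL/LSL, labelled flox here). Both genotypes are on the C57BL/6 background, carry the LSL-HIF1 dPA allele and received tamoxifen. In OE mice a tamoxifen-activated Cre under the villin promoter, which is active in intestinal epithelium, removes a stop cassette before a HIF-1α form that escapes oxygen-dependent breakdown. By the labels, replicates 1 and 2 of each group are male and replicate 3 is female, whereas the study's text calls the sequenced mice male, and it does not name their diet or their age at sequencing. The depth implied by the FPKM values was 18918341 to 24905343 per library. Hif1a, the mouse gene, had 535, 728 and 741 normalized counts in the libraries labelled OE, against 741, 1063 and 1185 in flox, so its row went against the label, and the sources do not say whether reads of the transgene reach that row. OE libraries below are the libraries so labelled. Of 71 HIF target genes on a list, 43 were listed, 41 of them higher and 2 lower in OE, and 17 passed edgeR, all higher (2.68% of the listed genes tested were higher calls). Without 1 library, the count of these calls was 4 to 13, and 4 without OE replicate 1. In males only it was 1. Markers of epithelium on a list of 14 were represented by Fabp6 and Lgr5, and markers of T and NK cells, myeloid cells, smooth muscle, stroma and nerve had 0 listed genes.

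Long noncoding RNAs are transcripts without a long reading frame, and most are made at far lower levels than messenger RNA. Many are named by where they lie: antisense genes run across another gene on the opposite strand, sense_intronic genes sit inside an intron, and lincRNAs stand between coding genes. HIF-1 is a transcription factor that binds DNA with its partner ARNT at sites holding the letters RCGTG, and it switches on genes of glucose uptake, glycolysis and blood vessel growth when oxygen is low. Some long noncoding RNAs share a start region with a neighbouring gene or host microRNAs, short RNAs that pair with messenger RNA through their seed.

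The windows around the start sites of 3 members are shown because these are the members overlapping a listed gene for which a RefSeq window was found. They hold 250 bases before and 50 bases after the start (RefSeq, GRCm38.p6), with capitals marking ACGTG or GCGTG on either strand, read as CACGT or CACGC where the match is on the other strand. Gm15998 runs against Efna3 (chr3:89316496-89316795, plus strand), Gm12867 runs against Slc2a1 (chr4:119132119-119132418, minus strand) and 1700034H15Rik runs against Slc30a1 (chr1:191907478-191907777, minus strand). The RefSeq starts of Gm15998 and Gm12867 lie 1307 and 1167 bases from the start in the deposited table, and that of 1700034H15Rik is the same.
Gm15998: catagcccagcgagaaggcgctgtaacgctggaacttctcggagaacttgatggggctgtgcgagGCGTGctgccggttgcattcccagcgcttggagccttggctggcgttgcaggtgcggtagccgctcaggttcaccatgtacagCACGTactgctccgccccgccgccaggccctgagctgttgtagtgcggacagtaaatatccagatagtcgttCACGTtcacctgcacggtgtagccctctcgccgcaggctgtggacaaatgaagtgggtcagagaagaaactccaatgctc
Gm12867: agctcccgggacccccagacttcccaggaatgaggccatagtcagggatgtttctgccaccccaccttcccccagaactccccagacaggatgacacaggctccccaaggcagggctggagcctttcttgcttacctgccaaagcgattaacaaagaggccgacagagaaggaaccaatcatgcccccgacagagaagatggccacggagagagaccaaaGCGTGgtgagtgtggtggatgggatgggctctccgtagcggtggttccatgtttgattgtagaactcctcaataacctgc
1700034H15Rik: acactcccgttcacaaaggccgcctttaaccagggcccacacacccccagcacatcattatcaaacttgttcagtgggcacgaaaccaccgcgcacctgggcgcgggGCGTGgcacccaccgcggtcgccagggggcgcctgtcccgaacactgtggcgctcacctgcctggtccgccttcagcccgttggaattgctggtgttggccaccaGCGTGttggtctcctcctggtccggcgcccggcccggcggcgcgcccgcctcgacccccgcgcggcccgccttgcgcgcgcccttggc

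Both motifs were searched on both strands, counting matches that overlap, and the window of Gm15998 held 3, that of Gm12867 held 1 and that of 1700034H15Rik held 2. RefSeq windows were found for 35 of 137 members, by symbol, chromosome, strand and a start within 2000 bases. A match to either motif stood in 21 of the 35 (60%), against 43.8% of all 32851 windows of the same length in the table. The windows of the whole table were not matched to the members by kind of gene or level, and the difference in share was not tested. Members with a match went in both directions, for example Gm15998, higher in OE, and 1700034H15Rik, lower in OE. A match is a run of letters and not a shown binding site.

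On the same strand, microRNA genes lie beside Gm37352 and within AL805899.1, both described below. For each of these microRNA genes 1 of the mature strands is given, with the seed, bases 2 to 8, in capitals (RefSeq, GRCm38.p6). No seed is shared between them.
mmu-miR-23a-3p: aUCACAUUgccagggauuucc
mmu-miR-27a-3p: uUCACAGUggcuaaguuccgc
mmu-miR-24-3p: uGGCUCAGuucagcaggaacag
mmu-miR-31-5p: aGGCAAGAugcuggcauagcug

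As a group, the long noncoding RNA genes were low in level and split nearly evenly in direction. Of the 137, 64 were higher and 73 lower in OE (46.7% higher, against 53.6% of all 923 listed genes). Their median level was 5.36 normalized counts (counts divided by a size factor per library), against 144 for all listed genes and 363 for the 656 listed protein-coding genes. Per length, the median was 0.204 FPKM for the members, against 2.48 FPKM for all listed genes and 4.44 FPKM for protein-coding genes. Every row of the deposited table has an unadjusted p of at most 0.05 in this same comparison, so directions and sizes are given as a description, and fold changes of genes chosen this way lean high. In whole tissue, fewer cells of a type and less RNA per cell cannot be told apart. The median log2 fold change of the 77 members with enough counts to test was -0.41, against 0.34 for the 785 listed genes tested, and the median size without sign was 2.20, against 0.75. The median standard error of the fitted values was 0.86, against 0.25. In a table selected by p, genes with larger errors are listed only with larger fold changes, so these sizes cannot be compared as responses.

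**Figure D1:**
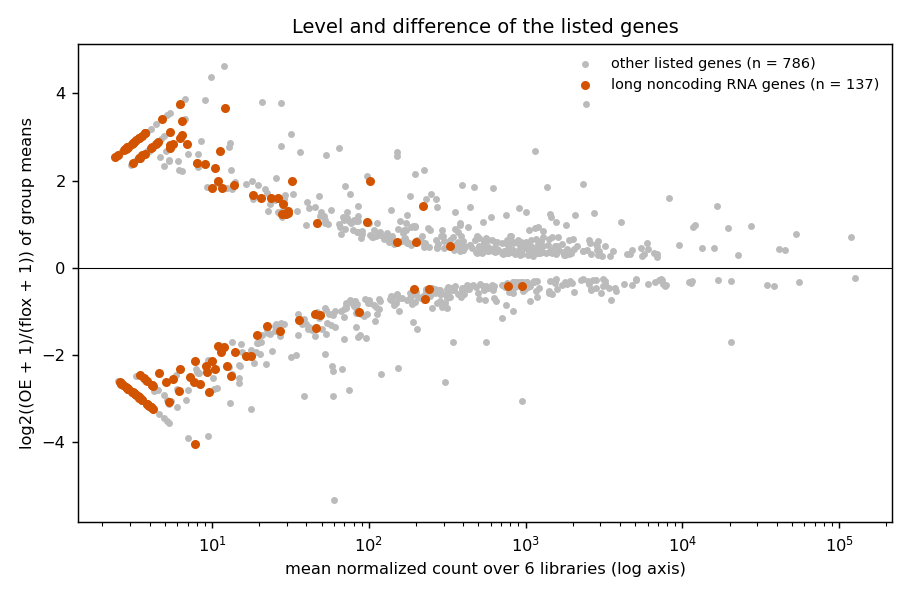
Each point is 1 of the 923 listed genes, with its mean normalized count over the 6 libraries on the x axis (log axis) and log2((OE + 1)/(flox + 1)) of the group means on the y axis. The 137 long noncoding RNA genes (orange) sit mostly at the low end, with a median of 5.36 normalized counts, on both sides of 0, and the empty band around 0 comes with a table that lists genes by their p.

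No long noncoding RNA gene passed edgeR's quasi-likelihood test at an adjusted p under 0.05 (0 of 77 tested, against 2.8% of the 785 listed genes tested). The smallest adjusted p was 0.243, for B430319F04Rik. At an unadjusted p under 0.05 there were 70 of 77 members, against 83.2% of the listed genes tested, a share that the selection of the table fixes. DESeq2 on the listed genes called 3 members, against 9.3% of listed genes: Gm15998 (adjusted p = 0.0186), B430319F04Rik (adjusted p = 0.0213) and A430027C01Rik (adjusted p = 0.0436). For every other tested member named below the edgeR adjusted p was over 0.7, and it was 1 for most. Both edgeR and DESeq2 took the spread between libraries from genes listed by p in this same comparison. Their standard errors and adjusted p-values may therefore be too small. With 3 libraries against 3, no exact permutation test could give a p below 0.1.

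Agreement between libraries was described by whether the groups were apart, that is, the lowest library of one exceeded the highest library of the other. That held for 87 of 137 members (63.5%), against 72% of all listed genes. Of the 137, 40 were higher without overlap (38.6% of listed genes) and 47 lower without overlap (33.5% of listed genes). Among the 45 members averaging 10 or more normalized counts it held for 39, against 75.7% of the 700 listed genes at that level. By biotype, the groups did not overlap in 35 of 50 lincRNA genes, 25 of 39 antisense genes and 16 of 32 TEC genes. The antisense genes without overlap were 15 higher and 10 lower in OE, and the lincRNA genes without overlap were 13 higher and 22 lower. Members running antisense over a coding gene were without overlap in 45 of 64 (70.3%), near the 72% of all listed genes. Those on the same strand as a coding gene they overlap were without overlap in 8 of 24 (33.3%). Of these 24, 58.3% had 0 counts in a whole group, against 31.2% of the 64, and 3 members are in both sets. A part of strand in this was not tested.

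**Figure D2:**
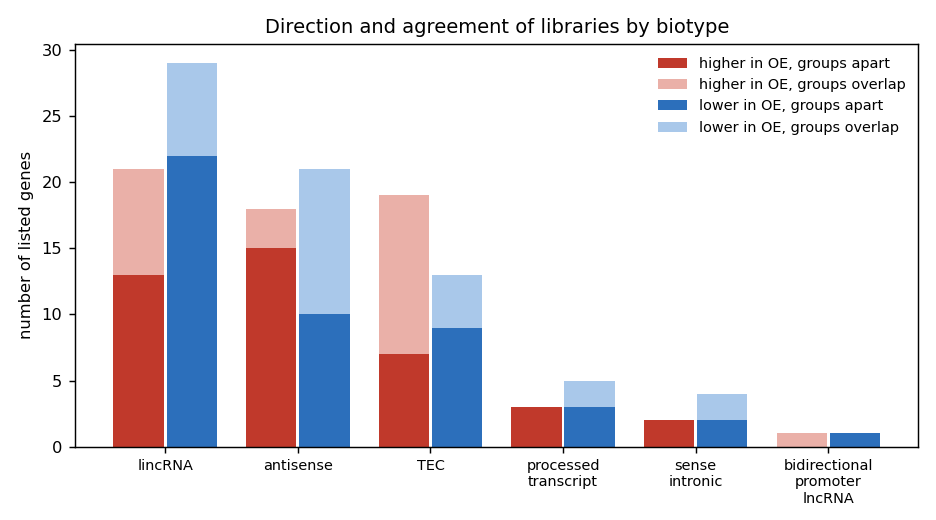
Bars count the listed long noncoding RNA genes of each biotype, those higher in OE in red at the left and those lower in OE in blue at the right, with the dark part for genes whose 3 OE libraries and 3 flox libraries did not overlap. The lincRNA genes have the largest lower count, 29 of 50, and the TEC genes the smallest dark share among the 3 large classes, 16 of 32.

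The level sets how far these values can be read. Any single library held between 78 and 106 of the 137 members with at least 1 count: 78, 88 and 100 in OE libraries 1, 2 and 3, against 95, 89 and 106 in flox. In 52 members (38%, against 14.1% of listed genes) one whole group had 0 counts, 31 of them in OE and 21 in flox, and 48 of these lay below the low-count limit of the table, a mean of about 4.18 normalized counts. A group with 0 counts is set here against 3 counts over the group. The resulting ratio leaves out the counting error of the other group and the spread between mice, so it is not a lower limit. The largest such ratio was that of A430027C01Rik, a TEC region within Tcf12 on its strand (chr9:72011376-72013019). It had 0, 0 and 0 normalized counts in the OE libraries, against 8.87, 26.4 and 11.3 in the flox libraries, and was 14.8-fold lower in OE by this ratio. In the other direction Gm15726, a gene that runs antisense to Mid1, a ubiquitin ligase bound to microtubules (chrX:169979047-169985232), had 3.74, 10.6 and 23.3 normalized counts in the OE libraries, against 0, 0 and 0 in the flox libraries, and was 13.5-fold higher in OE by this ratio. Both were singled out after their values were seen.

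Of the 6 members with the highest level per length, 4 were lower and 2 higher in OE, and the 12 members averaging 50 or more normalized counts were 6 higher and 6 lower. Gm45912, a short TEC region antisense to Gm15645 (chr7:105823264-105823806), stood first with a mean of 79.2 FPKM. It had 858, 814 and 770.5 normalized counts in the OE libraries, against 1200.0, 1075 and 979 in the flox libraries, which gave a log2 fold change of -0.41 (SE 0.14), where SE is the standard error of the edgeR fit. The 3 OE libraries lay below every flox library, by a margin that is small beside the level. 0610005C13Rik, which runs antisense to Bcat2, the mitochondrial branched-chain aminotransferase (chr7:45567794-45575327), had 647, 650.3 and 694 normalized counts in the OE libraries, against 762, 971 and 911 in the flox libraries, with a log2 fold change of -0.41 (SE 0.14). Here too the groups did not overlap, and Bcat2 itself was not listed.

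AL805899.1 spans the microRNA gene Mir31 on the same strand (chr4:88909855-88938521). This host region of miR-31, a microRNA studied in intestinal epithelium and its tumours, had 228, 125 and 168 normalized counts in the OE libraries, against 294, 239.8 and 322 in the flox libraries, a log2 fold change of -0.71 (SE 0.26). All OE libraries were below all flox libraries, with OE replicate 2 the lowest, and Mir31 was not listed. Gm10522, a lincRNA near the Fc receptor gene Fcgr2b (chr1:170981944-170986466), was the highest-level member higher in OE by FPKM, at 7.84 FPKM. Its values were 293, 239 and 193 in OE, against 132, 183 and 167 in flox, a log2 fold change of 0.59 (SE 0.24).
Of these 12, Gm15998, Gm17120, AC160637.1, Gm37352 and Gm44215 are described with their neighbours.

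The other members at that level, chosen after their values were seen, also differed by small margins. Zswim6, the gene with a coding symbol, had 188, 193 and 223 normalized counts in the OE libraries, against 246, 250.4 and 346 in the flox libraries, a log2 fold change of -0.48 (SE 0.22). The lincRNA 4833418N02Rik, whose start is 72 bases from that of the coding gene Ttc7, had 166, 143 and 174 normalized counts in the OE libraries, against 223, 204 and 253 in the flox libraries, a log2 fold change of -0.50 (SE 0.22). Gm45133, a TEC region antisense to Ccdc106, had 216, 184 and 150.4 normalized counts in the OE libraries, against 101, 119 and 142 in the flox libraries, a log2 fold change of 0.61 (SE 0.27). In each the groups did not overlap, and 43.6% of the 150-base windows of Gm45133 lie in Ccdc106 exons too, so its reads cannot be told apart without strand.

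Position was read against the other listed genes. Of the 137 members, 9 overlapped a listed gene, 10 had one within 10 kb and 21 within 100 kb. Of these 21, 16 were higher or lower together with the nearest listed gene (76.2%), against 59.7% of the 186 listed genes with such a neighbour. Among overlapping pairs the count was 8 of 9, against 24 of 28 listed genes (85.7%), a share near that of the members, and each of these pairs is counted from both genes in the 28. Whether library preparation and counting used strand is not given, so for an overlapping pair the reads of both genes cannot be told apart where their exons overlap. Reads of unspliced RNA of the other gene, which can fall in its introns, were not assessed. For AC160637.1 and Gm37975, on the same strand as their neighbours, counting by strand would not separate such reads.

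Among the overlapping pairs, 4 join a member to a gene of glucose uptake or glycolysis. Gm12867, an antisense gene inside Slc2a1 (chr4:119130292-119131001), had 6.55, 17.03 and 13.99 normalized counts in the OE libraries, against 0, 0 and 0.941 in the flox libraries, a log2 fold change of 4.86 (SE 1.26). Slc2a1, the glucose transporter GLUT1, had 1274, 1394 and 1243 normalized counts in the OE libraries, against 490.1, 554 and 455 in the flox libraries, a log2 fold change of 1.38 (SE 0.14) with an edgeR adjusted p of 0.00553. The groups did not overlap in either gene, and no exon base of Gm12867 lies in a Slc2a1 exon. Reads of unspliced Slc2a1 RNA over Gm12867 were not assessed. With 35 counts over OE and 1 over flox, the fitted value of Gm12867 depends on that single count, and the ratio of OE to flox was 39.3 with an exact 95% interval of 6.60 to 1594 that covers counting error only. The call of Slc2a1 was lost without OE replicate 1 (adjusted p = 0.0633 by edgeR) and in males only.

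Gm26762, a lincRNA by biotype that runs against Gpi1 (chr7:34224755-34230236), had 54.2, 37.3 and 34.97 normalized counts in the OE libraries, against 15.8, 16.7 and 19.8 in the flox libraries, a log2 fold change of 1.27 (SE 0.49). Gpi1, the phosphoglucose isomerase, had 12164, 10927 and 10618 normalized counts in the OE libraries, against 7636, 8479.8 and 7438 in the flox libraries, a log2 fold change of 0.52 (SE 0.13). The counts of the member were far below those of Gpi1 in every library, and 741 of its 5284 exonic bases lie in exons on the other strand. Both were higher in all OE libraries.

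AC160637.1, a TEC region on the same strand as Pkm, the muscle-type pyruvate kinase (chr9:59672814-59676700), had 363, 322 and 481 normalized counts in the OE libraries, against 242, 221 and 362 in the flox libraries, a log2 fold change of 0.50 (SE 0.24). Pkm had 17259.5, 15858 and 14725 normalized counts in the OE libraries, against 7599.7, 8859 and 7862 in the flox libraries, a log2 fold change of 0.98 (SE 0.14) and an edgeR adjusted p of 0.0347. The groups of AC160637.1 overlapped, since flox replicate 3 lay above OE replicate 2, whereas those of Pkm did not, and 767 of the 3887 exonic bases of AC160637.1 are in exons of Pkm. Without OE replicate 3 the log2 fold change of AC160637.1 was 0.32. The call of Pkm was lost without any 1 library (adjusted p 0.101 to 0.275 by edgeR) and in males only. Gm37975, a TEC region inside Pfkfb3, whose enzyme makes the activator of phosphofructokinase (chr2:11532596-11534694), had 12.2, 0 and 9.33 normalized counts in the OE libraries, against 0, 0 and 0 in the flox libraries. With the 0 counts of flox set at 3 counts over the group it was 7.67-fold higher in OE, a ratio and not a lower limit. OE replicate 2 also had no counts. Pfkfb3 had 733, 1359 and 1053 normalized counts in the OE libraries, against 376, 376 and 602 in the flox libraries, a log2 fold change of 1.22 (SE 0.25), with OE replicate 2 the highest.

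Among members on the strand opposite a listed gene, Gm15998 had the highest counts. Gm15998 runs antisense across Efna3, an ephrin ligand for Eph receptors (chr3:89315439-89318907), and had 295, 276 and 396 normalized counts in the OE libraries, against 110.4, 179 and 71.5 in the flox libraries. The fit gave a log2 fold change of 1.42 (SE 0.33) and an adjusted p of 0.493 by edgeR. Efna3 had 188, 217 and 241 normalized counts in the OE libraries, against 72.97, 98.4 and 135 in the flox libraries, a log2 fold change of 1.08 (SE 0.29). Neither pair of groups overlapped, and within flox the order of the libraries differed: replicate 2 was highest for Gm15998 and replicate 3 for Efna3. Of the 1844 exonic bases of Gm15998, 344 lie in exons on the other strand.

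Gm11110 and Gm16754 also lie opposite a listed gene and were higher in OE together with it. Gm11110, whose first bases overlap those of Tnfsf9, a TNF family ligand that stimulates T cells (chr17:57091370-57105942), had 29.9, 57.5 and 33.8 normalized counts in the OE libraries, against 15.8, 6.15 and 15.996 in the flox libraries, a log2 fold change of 1.67 (SE 0.60). Tnfsf9 had 50.5, 77.7 and 64.1 normalized counts in the OE libraries, against 10.8, 0 and 16.9 in the flox libraries, a log2 fold change of 2.79 (SE 0.85). Flox replicate 2 was the lowest library for both. Gm16754 runs against Keap1, the adaptor that marks the transcription factor NRF2 for breakdown (chr9:21225371-21233046), and had 73.9, 67.1 and 47.8 normalized counts in the OE libraries, against 44.4, 32.5 and 14.1 in the flox libraries, a log2 fold change of 1.05 (SE 0.49). Keap1 had 1761, 1651 and 1577 normalized counts in the OE libraries, against 908, 978 and 891 in the flox libraries, a log2 fold change of 0.85 (SE 0.13) with an edgeR adjusted p of 0.0487. The call of Keap1 was lost without any 1 library (edgeR adjusted p 0.121 to 0.329), in males only, and under TMM (0.0899) or FPKM scaling (0.0567). It was also lost among genes averaging 10 or more normalized counts (edgeR adjusted p 0.0533).

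The remaining overlapping pairs were Gm17120 with Slc6a20a, lower together, and 1700034H15Rik with Slc30a1, in opposite directions. Gm17120, antisense to Slc6a20a, an imino acid transporter of the brush border (chr9:123635388-123637325), had 74.8, 23.4 and 73.4 normalized counts in the OE libraries, against 109, 109.8 and 132 in the flox libraries, a log2 fold change of -1.03 (SE 0.43). Slc6a20a had 2078, 2224 and 3017 normalized counts in the OE libraries, against 3203, 3242 and 4537 in the flox libraries, a log2 fold change of -0.59 (SE 0.19). Of the 150-base windows of Gm17120, 45.8% lie in Slc6a20a exons as well, the largest share among these pairs, and without OE replicate 2 the log2 fold change of Gm17120 was -0.66. 1700034H15Rik, which starts across the start of the zinc exporter gene Slc30a1 (chr1:191886130-191907527), had 17.8, 28.7 and 46.6 normalized counts in the OE libraries, against 88.7, 75.6 and 36.7 in the flox libraries, a log2 fold change of -1.11 (SE 0.51). Slc30a1 had 1124, 1169 and 1134 normalized counts in the OE libraries, against 956, 825 and 1012 in the flox libraries, a log2 fold change of 0.30 (SE 0.13). The female OE library of 1700034H15Rik lay above the female flox library, so its groups overlapped, whereas those of Slc30a1 did not.

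**Figure D3:**
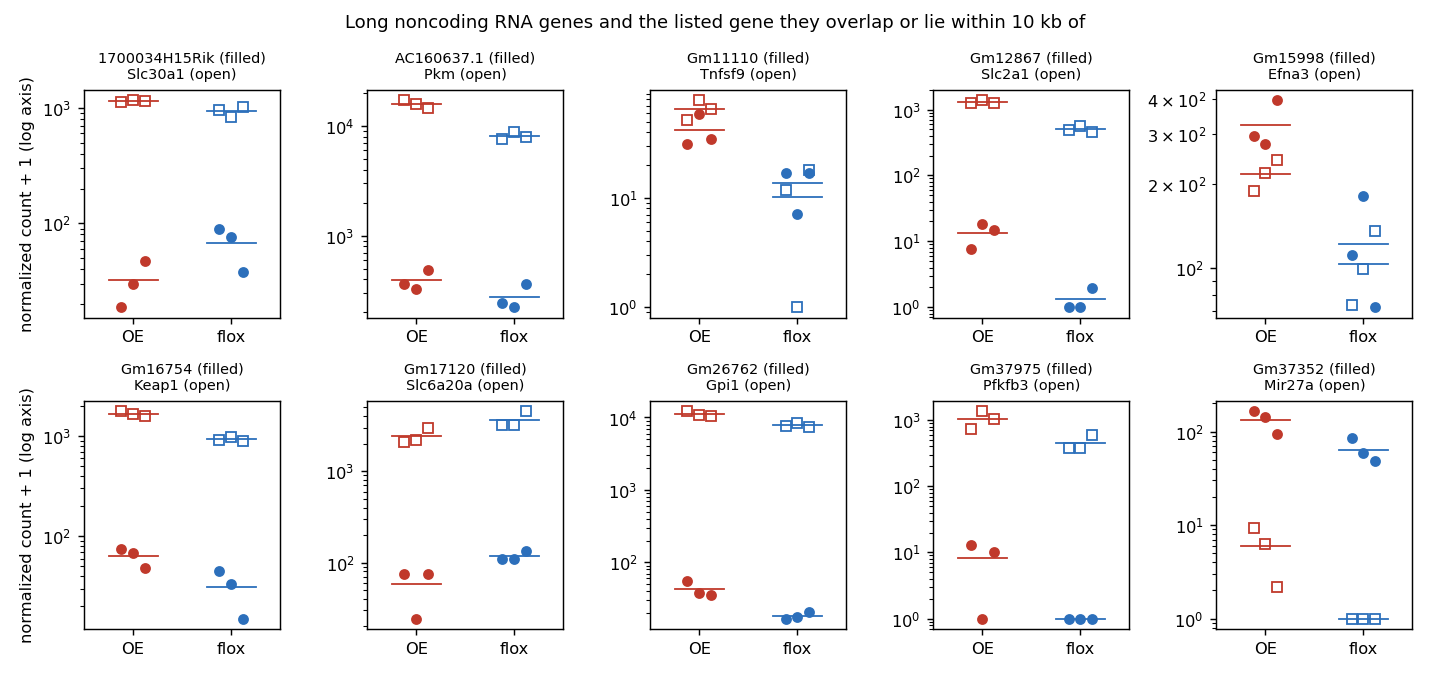
Each panel gives 1 pair, with the normalized count + 1 on a log axis, OE libraries in red at the left and flox libraries in blue at the right, filled circles for the long noncoding RNA gene, open squares for the listed gene it overlaps (or, for Gm37352, lies 5623 bases from), and lines for group means. In 9 of the 10 pairs both genes lie on the same side, and in the pair of 1700034H15Rik and Slc30a1 they lie on opposite sides.

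Gm37352 stands beside the microRNA cluster with mature strands shown above. It is a TEC region upstream of that cluster on the same strand (chr8:84200869-84203049), 5623 bases from Mir27a, and had 164, 142 and 93.3 normalized counts in the OE libraries, against 83.8, 57.98 and 47.99 in the flox libraries, a log2 fold change of 1.07 (SE 0.35). Mir27a, listed with counts far below those of Gm37352, had 8.42, 5.32 and 1.17 normalized counts in the OE libraries, against 0, 0 and 0 in the flox libraries. In both genes OE replicate 1 was highest, and every OE library was above every flox library. The libraries were made from polyadenylated RNA, so counts at a microRNA gene are not a level of the mature strand.

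Further from a listed gene, Gm44215 and Gm45629 lay near genes of immune defence. Gm44215, a TEC region 12053 bases from Klrb1, a lectin receptor of natural killer and other lymphocytes (chr6:128691073-128693783), had 179.6, 146 and 168 normalized counts in the OE libraries, against 2.96, 67.6 and 50.8 in the flox libraries, a log2 fold change of 2.01 (SE 0.69). Klrb1 had 163, 70.2 and 103 normalized counts in the OE libraries, against 16.8, 33.4 and 39.5 in the flox libraries, a log2 fold change of 1.90 (SE 0.46). For both the lowest library was flox replicate 1. Gm45629, a TEC region 26615 bases from Saa3, an acute-phase serum amyloid gene (chr7:46682838-46685383), had 20.6, 22.4 and 12.8 normalized counts in the OE libraries, against 8.87, 1.76 and 2.82 in the flox libraries, a log2 fold change of 2.04 (SE 0.83). Saa3 had 119, 102 and 126 normalized counts in the OE libraries, against 24.7, 59.7 and 21.6 in the flox libraries, a log2 fold change of 1.70 (SE 0.44). In these 4 genes the groups did not overlap.

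2210011K15Rik, chosen after its values were seen, is a lincRNA 22527 bases from Insig2, a sterol sensor of the endoplasmic reticulum and a gene on the HIF target list (chr1:121355116-121359900). It had 75.8, 57.5 and 23.3 normalized counts in the OE libraries, against 0, 24.6 and 12.2 in the flox libraries, a log2 fold change of 2.07 (SE 0.92), with flox replicate 2 above OE replicate 3. Insig2 had 1311, 1383 and 994 normalized counts in the OE libraries, against 584, 1039 and 959 in the flox libraries, a log2 fold change of 0.51 (SE 0.22), again with flox replicate 2 above OE replicate 3. The groups overlapped in both. Not every such neighbour went the same way. 1700048M11Rik, Gm44414, Gm45487 and Gm10522 were higher in OE, whereas their nearest listed genes Kcne2, Gkn3, Abcc6 and Gm26620 were lower. Kcne2 had no counts in OE, and the log2 fold changes of Gkn3, Abcc6 and Gm26620 were -4.43, -0.61 and -2.69. Gm28941, Gm20512, Gm9905 and Gm13066 went the same way as theirs. Of the 21 members within 100 kb of a listed gene, 16 shared its direction.

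Among members averaging 10 or more normalized counts with groups apart, B430319F04Rik had the largest log2 fold change above 0. It is a TEC region antisense to Ampd3, an AMP deaminase (chr7:110766677-110769345), and had 25.3, 29.8 and 15.2 normalized counts in the OE libraries, against 0.986, 0.879 and 0.941 in the flox libraries, a log2 fold change of 4.48 (SE 0.86). Each flox library held 1 count and each OE library over 15 normalized counts. With 68 counts over OE and 3 over flox, the ratio was 25.4 with an exact 95% interval of 8.34 to 126 for counting error only, and Ampd3 was not listed. Gm43256, inside an intron of Magi3, a scaffold protein of cell junctions, had 25.3, 7.45 and 27.98 normalized counts in the OE libraries, against 6.90, 0 and 0 in the flox libraries, a log2 fold change of 3.11 (SE 1.22). Its OE replicate 2 was close to flox replicate 1, so its groups were apart by under 1 normalized count, and its log2 fold change was 7.37 without flox replicate 1.

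Hotairm1 was the single member found on lists of 79 known long noncoding RNA genes, the other listed one being Terc, the telomerase RNA, whose biotype is misc_RNA. It is an antisense gene known in human myeloid cells, and it had 37.4, 9.58 and 19.8 normalized counts in the OE libraries, against 3.94, 5.27 and 6.59 in the flox libraries, a log2 fold change of 2.06 (SE 0.77). OE replicate 1 was highest and OE replicate 2 not far above flox replicate 3. Members of the imprinted, X inactivation, snoRNA host, microRNA host, immune and hypoxia-linked lists were not among the listed genes, and their expression was not analysed here.

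A further set of antisense genes was higher in all OE libraries, each lying across a coding gene that was not listed. Gm15559, across the pseudouridine synthase gene Pus1, had 18.7, 41.5 and 24.5 normalized counts in the OE libraries, against 9.86, 4.39 and 10.4 in the flox libraries, a log2 fold change of 1.77 (SE 0.68). Gm16365, across Traf3ip2, an adaptor of interleukin receptors, and the kinase gene Fyn, had 31.8, 40.4 and 22.1 normalized counts in the OE libraries, against 8.87, 8.79 and 11.3 in the flox libraries, a log2 fold change of 1.69 (SE 0.60). Gm27003, across Gabpb1, a subunit of an ETS family transcription factor, had 63.6, 24.5 and 38.5 normalized counts in the OE libraries, against 17.7, 12.3 and 14.1 in the flox libraries, a log2 fold change of 1.52 (SE 0.55). The lowest OE library of each exceeded the highest flox library, by the least for Gm27003. The lincRNA I730028E13Rik, 233851 bases from the nearest coding start, had 45.8, 19.2 and 44.3 normalized counts in the OE libraries, against 2.96, 12.3 and 18.8 in the flox libraries, a log2 fold change of 1.67 (SE 0.72), with OE replicate 2 just above flox replicate 3.

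**Figure D4:**
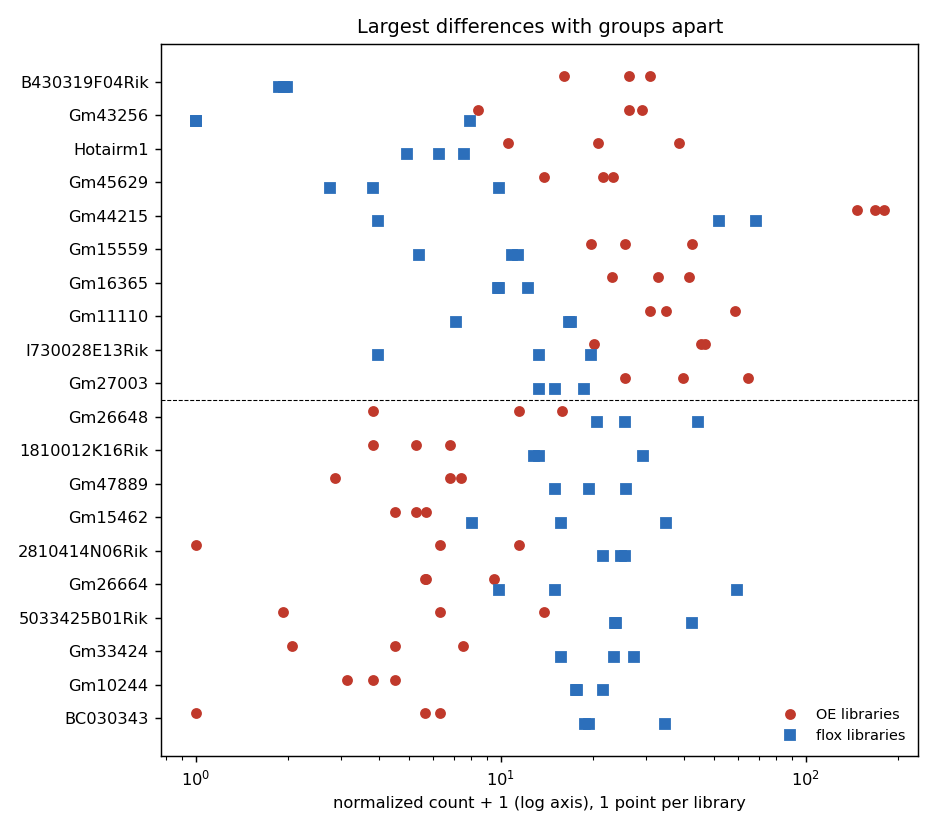
Points are single libraries, with the normalized count + 1 on a log axis, for the 10 members higher (above the dashed line) and the 10 members lower (below it) in OE with the largest log2 fold changes among those averaging 10 or more normalized counts with groups apart. Red circles are OE libraries and blue squares flox libraries, and the gap between them is narrowest for Gm26664, Gm43256 and I730028E13Rik.

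Among the 10 members lower in OE with the largest differences, 6 were lincRNA genes. BC030343, a lincRNA whose start is 53 bases from that of the zinc finger gene Zfp316 (chr5:143270075-143272513), had 0, 5.32 and 4.66 normalized counts in the OE libraries, against 33.5, 18.4 and 17.9 in the flox libraries, a log2 fold change of -2.80 (SE 0.95). Gm10244, antisense to the ubiquitin ligase gene Mkrn1, had 2.81, 2.13 and 3.50 normalized counts in the OE libraries, against 16.8, 16.7 and 20.7 in the flox libraries, a log2 fold change of -2.64 (SE 0.77). Gm33424, a lincRNA whose nearest coding start is that of Nfil3, a basic leucine zipper repressor, had 6.55, 1.06 and 3.50 normalized counts in the OE libraries, against 14.8, 26.4 and 22.6 in the flox libraries, a log2 fold change of -2.46 (SE 0.81). In these 3 genes every flox library was over 14 normalized counts and every OE library under 7. The values of Gm10244 were the closest together within each group.

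5033425B01Rik, a TEC region inside Tmem45b, had 0.935, 5.32 and 12.8 normalized counts in the OE libraries, against 22.7, 22.8 and 41.4 in the flox libraries, a log2 fold change of -2.20 (SE 0.84). The lincRNA 2810414N06Rik, whose start is 353 bases from that of Edem3, a mannosidase of protein quality control, had 0, 5.32 and 10.5 normalized counts in the OE libraries, against 20.7, 23.7 and 24.5 in the flox libraries, a log2 fold change of -2.14 (SE 0.95). The lincRNA 1810012K16Rik, whose start is 124 bases from that of Slc25a15, the mitochondrial ornithine carrier, had 2.81, 4.26 and 5.83 normalized counts in the OE libraries, against 11.8, 12.3 and 28.2 in the flox libraries, a log2 fold change of -2.01 (SE 0.79). In each of these OE replicate 1 was the lowest library and OE replicate 3 the highest of its group, and no OE library reached a flox library.

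Gm47889, a lincRNA, had 1.87, 6.39 and 5.83 normalized counts in the OE libraries, against 24.7, 18.4 and 14.1 in the flox libraries, a log2 fold change of -2.01 (SE 0.77). Gm15462, antisense to Lrrc31, had 4.68, 4.26 and 3.50 normalized counts in the OE libraries, against 14.8, 7.03 and 33.9 in the flox libraries, a log2 fold change of -2.12 (SE 0.84). Gm26648, antisense to Nub1, which lowers levels of the ubiquitin-like protein NEDD8, had 2.81, 14.9 and 10.5 normalized counts in the OE libraries, against 19.7, 24.6 and 43.3 in the flox libraries, a log2 fold change of -1.64 (SE 0.74). Flox replicate 3, the female, was the highest library for Gm15462 and Gm26648 and the lowest flox library for Gm47889. Gm26664, a lincRNA near the early response gene Ier2, had 4.68, 8.51 and 4.66 normalized counts in the OE libraries, against 8.87, 14.1 and 58.3 in the flox libraries, a log2 fold change of -2.16 (SE 0.87). There flox replicate 3 stood far above the rest, and flox replicate 1 was barely above OE replicate 2. Without flox replicate 3 the log2 fold change was -0.94 for Gm26664 and -1.36 for Gm15462.

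Of 10 markers of B and plasma cells on a list, only some were listed, and those that did not reach the p of the table are not seen here. Among the listed ones, Ms4a1, Cd22, Pax5 and Cr2 were each lower in OE, with summed levels of 71.1 to 122 normalized counts in OE, against 130.2 to 429 in flox, and none of the 4 passed edgeR. Their part in the values of the members lower in OE was not tested. The summed normalized counts of the members themselves ran from 4369 to 4844 in OE, against 4678 to 4933 in flox.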

How the data were processed

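Polyadenylated RNA of whole ileum was sequenced as read pairs of 150 bases. The authors aligned reads to GRCm38 with HISAT2 (version 2.0.5, per the submitters' processing notes) and counted them per gene with featureCounts. Counts were deposited as integers for every library. A normalized signal, called normalized counts here, was deposited too and equals the count over a library-specific DESeq2 size factor, and the authors also gave FPKM, which corrects for length and depth. The deposited log2 fold changes, p-values and calls are the authors' own comparison of these groups and were not used as results. Those p-values were read only to learn how the table was made: it lists 923 genes with an unadjusted p of at most 0.05 out of 19204 tested, and 138 of them, with a mean of at most 4.16 normalized counts, carry an adjusted value of 1. The sources used here do not state whether library preparation and counting used strand.

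Members were taken by biotype. The members, lists and tests were chosen with earlier results of these data known. edgeR (version 4.0.16, R 4.3.3) was fitted by its quasi-likelihood test to the deposited counts of the 785 listed genes above the low-count limit, with the deposited size factors, 3 libraries against 3 and no covariate, and the Benjamini-Hochberg adjustment ran over 19204 genes. The fit was also run on simulated counts, with levels and spread taken from listed genes other than the lowest, and the outcome is not reported here. Genes were named if they passed edgeR, were among the 10 largest higher or 10 largest lower log2 fold changes with groups apart among genes averaging 10 or more normalized counts, were among the 6 highest mean FPKM, stood on a list of known long noncoding RNA genes, or lay within 10 kb of a listed gene. Positions are those of GENCODE M21 on GRCm38, where 137 of 137 members were found, 135 with the start and end of the deposited table. Shared reads were assessed from 150-base windows of transcripts. The alternatives tried were DESeq2 (version 1.42.0), TMM and FPKM scaling, other filters on low counts, males only, sex as a covariate, a replicate block and leaving out 1 library at a time. Some items of the fixed lists and annotations are not reported here. Precision is limited by 3 mice per group and by low counts.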

Additional observations from a re-analysis of the deposited data

Results flagged for a closer look

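1700034H15Rik was lower in both male OE libraries than in both male flox libraries and higher in the female OE library than in the female flox library. It had 17.8 and 28.7 normalized counts in the male OE libraries, against 88.7 and 75.6 in the male flox libraries, and 46.6 in the female OE library, against 36.7 in the female flox library, a female difference of 9.93 normalized counts. With 1 female per group the opposite directions rest on single libraries. A test of the sex difference by edgeR's interaction term called 0 of 77 members, with 1 at an unadjusted p under 0.05 and a smallest adjusted p of 1. DESeq2 was not run for that term.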

How the results depend on the processing

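The count of 0 members called by edgeR stayed at 0 with sex as a covariate, in males only, with TMM over the listed genes, with FPKM library totals, with no filter on low counts, among genes averaging 10 or more, and in each of 6 fits without 1 library (0 to 0). It was 3 with DESeq2, and 70 with an unadjusted p under 0.05, a threshold added after seeing the data. Over all listed genes the same test called 22, and 1 in males only, 4, 9 and 12 without OE replicates 1, 2 and 3, 13, 13 and 7 without flox replicates 1, 2 and 3, and 73 with DESeq2. By group means, the count of members higher in OE was 64 each time 1 library was left out, in males only and under TMM or FPKM scaling. Among those averaging 10 or more normalized counts it was 23 of 45. The members were listed by p in these same libraries, so an unchanged direction follows largely from that selection and is not a sign of stability. The count with groups apart was 95 to 100 without 1 library, 104 in males only, 85 with TMM, 87 with FPKM and 39 of 45 averaging 10 or more, and fewer libraries per group make overlap less likely by construction. Except for the genes averaging 10 or more, the shares over all listed genes were not computed under these settings. The shifts are therefore not a result about the members. The count sharing the direction of the nearest listed neighbour was 8 of 9 for overlapping genes only (85.7% of listed genes), 9 of 10 within 10 kb (64.4% of listed genes) and 36 of 56 within 500 kb (64.3%, against 58.9% of listed genes). Within 10 kb, 9 of the 10 members overlap their neighbour, against 28 of the 59 listed genes, so those 2 shares are not of like pairs. Of 447 alternative log2 fold changes over the 33 named genes, 0 reversed sign. These genes were listed by p in these same libraries, and many were named for having groups apart. A reversal was therefore unlikely by construction, and its absence is not a sign of stability. Of the 447, 2 passed the threshold that the edgeR values missed, those of Gm15998 and B430319F04Rik in DESeq2. In males only, the log2 fold change was -0.80 for Gm26664, -1.26 for Gm15462 and -1.82 for 1700034H15Rik.

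The replicate numbers are shared by the groups, but the correlations of deviations of same-numbered libraries over 785 genes were 0.042, 0.026 and 0.062, so the numbers were not taken to pair the mice, although each library correlated best with its own number. With the replicate block, 0 members and 41 of 785 listed genes were called.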
